A study of Mus musculus with 6 samples.

Results

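The fatty acid elongases and desaturases are 10 genes of the 55401 in the count files, taken by symbol: *Elovl1*, *Elovl3*, *Elovl5*, *Elovl6*, *Elovl7*, *Scd1*, *Scd2*, *Fads1*, *Fads2* and *Fads3*. They were compared in bulk RNA-seq of subcutaneous white adipose tissue (scWAT) between 3 YT-FF and 3 YT-AKO libraries from male mice, 8 weeks old, kept at room temperature on normal chow. YT-AKO mice have both floxed genes, *Yap*fl/fl and *Taz*fl/fl, together with *Adipoq*Cre. This Cre is driven by the *Adipoq* promoter in mature adipocytes, so other cells of the tissue keep both genes. The control libraries are labelled WT, and the study's methods call the controls YT-FF, mice with the floxed alleles and no Cre. The floxed *Yap* and Cre lines were on C57BL/6-129 and C57BL/6 backgrounds.

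Elongases of the ELOVL family sit in the endoplasmic reticulum and join malonyl-CoA to a fatty acyl-CoA, the first step of an elongation cycle that other enzymes complete. Stearoyl-CoA desaturases (SCD) place the double bond of monounsaturated fatty acids such as oleate, and FADS1 and FADS2 place double bonds in polyunsaturated chains. *Scd1* is known as an abundant lipogenic transcript of white fat, and *Elovl3* as a gene of brown and beige fat that responds to cold. Only transcripts were measured here, so the values say nothing of chain length or unsaturation of the lipids.

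In the libraries labelled YT-AKO, *Elovl3* was called higher and *Fads3* was called lower, and the other 8 genes did not pass the test. *Elovl3* went from at most 0.352 CPM in any YT-FF library to at least 6.15 CPM, a log2 fold change of 5.90 ± 0.761 (SE, n = 3 per group). *Fads3* fell by 0.91 ± 0.268 (SE) on the log2 scale. Mean *Scd1* CPM was 0.507 times that of YT-FF, with libraries that overlapped between the groups. Of all 16807 genes tested with edgeR, 12.6% were called higher and 9.01% lower at a Benjamini-Hochberg adjusted p under 0.05, so 1 call in each direction among 10 genes was a share near the background. The median log2 fold change was -0.03 over the 10 genes and -0.02 over all tested genes.

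Total counts per library ran from 17740987 to 21838493. Levels are given as CPM (counts scaled to library size with TMM factors) where libraries are compared, and as TPM, which divides by exon length, where genes are compared. Both scales differ in their zero point: over the tested genes the median log2 ratio of mean TPM, YT-AKO over YT-FF, was -0.66, and log2 fold change fell with exon length (Spearman rho -0.376, across genes, which are not independent replicates). Library YT-AKO 2 stood apart from the other YT-AKO libraries, with 20501 genes detected against 22810 and 23397 and a TMM factor of 0.777 against 0.954 and 0.955, and rho was -0.283 without it. Leaving it out gave log2 fold changes of 6.11 for *Elovl3* and -0.79 for *Fads3*, both still called, and -0.66 for *Scd1*. On the TPM scale all the 10 genes but *Elovl3* had lower means in the libraries labelled YT-AKO, including *Elovl1*, *Elovl7*, *Scd2* and *Fads1*, whose log2 fold changes in CPM were above 0. Of the targeted genes, *Yap1* fell by 0.98 ± 0.167 (SE) on the log2 scale (edgeR adjusted p = 0.0179), whereas *Wwtr1*, which encodes TAZ, rose by 0.89 ± 0.182 (SE, edgeR adjusted p = 0.0220). The *Wwtr1* counts thus did not fall with the label. Counts over all exons in bulk tissue cannot show whether the floxed part of the gene was lost. The study reports less YAP and TAZ protein in YT-AKO scWAT by immunoblot. Each direction given here rests on libraries labelled YT-AKO. The adipocyte marker *Adipoq* had 1473 to 1999.5 CPM in YT-FF and 1939 to 2402 CPM in YT-AKO. Of 10 adipocyte markers, 4 were called higher and none lower (12.6% and 9.01% over all tested genes). As the tissue is bulk, fewer cells of a type and less RNA per cell cannot be told apart.

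Of the 10 genes, 6 lie on chromosome 19 (GRCm38). *Fads3* (10041569 to 10060110, plus strand), *Fads2* (10062765 to 10101746, minus strand) and *Fads1* (10182888 to 10196877, plus strand) form one cluster, in which the ends of *Fads3* and *Fads2* face each other over 2654 bases. *Scd2* (44293674 to 44306864, plus strand) and *Scd1* (44394455 to 44407879, minus strand) form a second, and *Elovl3* (46131897 to 46135694, plus strand) lies apart on the same chromosome. *Elovl6* is on chromosome 3, *Elovl1* on chromosome 4, *Elovl5* on chromosome 9 and *Elovl7* on chromosome 13. Of the 579 genes tested on chromosome 19, 14.5% were called higher and 8.46% lower. The share of 50-base windows that recur in another gene, where counting could split reads, was at most 4.56%, for *Scd1*, whose windows recur in *Scd2*, *Scd3* and *Scd4*.

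RefSeq promoters, from 250 bases before to 50 after a transcription start, were at hand for 6 of the 10 genes. The stretch before the start is shown for *Fads3*, the gene called lower, and for *Elovl1*, an elongase that was not called, each 5′ to 3′ on the gene's strand, with CCAAT or its reverse complement ATTGG in capitals. *Fads3* is at chr19:10041298-10041547 (plus strand) and *Elovl1* at chr4:118427843-118428092 (plus strand) of GRCm38.p6.
Fads3: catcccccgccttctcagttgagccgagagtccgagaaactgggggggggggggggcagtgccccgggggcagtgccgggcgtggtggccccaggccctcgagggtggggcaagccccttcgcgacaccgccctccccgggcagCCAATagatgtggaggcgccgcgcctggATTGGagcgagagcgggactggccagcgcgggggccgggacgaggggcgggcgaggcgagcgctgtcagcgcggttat
Elovl1: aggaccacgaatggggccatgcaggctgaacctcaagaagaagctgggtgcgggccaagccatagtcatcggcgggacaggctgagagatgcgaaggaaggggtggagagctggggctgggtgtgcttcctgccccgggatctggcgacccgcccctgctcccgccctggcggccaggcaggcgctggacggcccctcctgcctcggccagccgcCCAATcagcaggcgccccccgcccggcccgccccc
*Fads3* has 2 CCAAT boxes, whose first bases lie 106 and 78 bases before the start, and this *Elovl1* promoter has 1, at 35 bases. The table holds another *Elovl1* promoter (chr4:118429451-118429700 before its start), in which none of the motifs searched was found. *Elovl5* also holds 2, at 71 and 17 bases, beside an E-box (CACGTG) at 161 bases. Of all 32851 RefSeq promoters of this length, 37.4% hold CCAAT and 7.15% hold CACGTG on either strand. The SREBP site TCACNCCAC (1.24% of all promoters), the C/EBP palindrome TTGCGCAA (0.183%), the TEAD site GGAATG (14.7%), the PPAR direct repeat (AGGTCA, 1 base, AGGTCA, 0.0396%) and the LXR direct repeat (the same with a wider gap, 0.0152%) were not in the windows of these 6 genes.

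In the YT-FF libraries *Scd1* dwarfed the rest per length, at 20459, 18227 and 33320 TPM, and ranked 1 among all genes by mean TPM. *Fads3* followed at 316.5 to 477 TPM and *Scd2* at 236.8 to 314 TPM. *Elovl5*, *Elovl6*, *Fads1* and *Elovl1* had means of 130.2, 112, 76.7 and 65.9 TPM, *Fads2* 24.3 TPM, *Elovl7* 2.32 TPM and *Elovl3* 0.478 TPM. Each gene of this order lay above the next in all 3 YT-FF libraries except *Elovl5* over *Elovl6*, which held in 2. In the libraries labelled YT-AKO the order was *Scd1*, *Scd2*, *Fads3*, *Elovl5*, *Elovl6*, *Fads1*, *Elovl1*, *Elovl3*, *Fads2* and *Elovl7*. There *Elovl6* exceeded *Fads1* in 1 of 3 libraries, *Fads1* exceeded *Elovl1* in 1 and *Elovl3* exceeded *Fads2* in 2, so these neighbours in the order were not apart beyond their spread. *Elovl3* stood eighth rather than last, and *Scd1* ranked 8 among all genes by mean TPM.

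**Figure D1:**
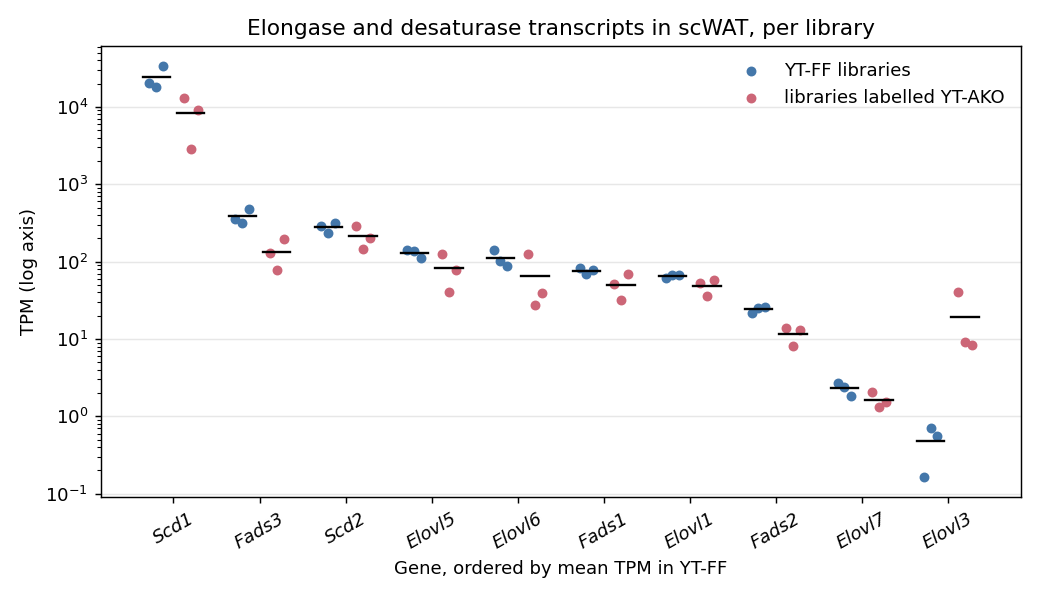
TPM (log axis) of each elongase and desaturase in the 3 YT-FF and 3 YT-AKO libraries, with points for libraries and bars for group means, ordered by mean TPM in YT-FF. *Scd1* lies far above the rest in both groups, and *Elovl3* is the gene whose YT-AKO points (8.46 to 40.5 TPM) lie above its YT-FF points (0.166 to 0.703 TPM).

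*Elovl3*, an elongase of saturated and monounsaturated very long chains, had 2, 8 and 6 counts in the YT-FF libraries and 493, 176 and 104 in the libraries labelled YT-AKO. These are 0.0852, 0.352 and 0.309 CPM against 28.7, 10.4 and 6.15 CPM. The groups did not overlap, and the YT-AKO libraries themselves differed by several fold, with library 1 the highest. The fold of mean CPM was 60.6, and the log2 fold change of 5.90 had a 95% interval from 4.14 to 7.67 (edgeR adjusted p = 0.0166). The gene passed the filter on low counts through the YT-AKO libraries alone, since no YT-FF library reached 10 counts. The value stayed between 5.05 and 6.28 when each library was left out in turn, but the adjusted p rose above the threshold without YT-FF 1 or without YT-FF 2, where no gene at all was called higher.

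Library YT-AKO 1, the highest in *Elovl3*, also had the most skeletal muscle transcripts. The 6 muscle markers summed to 2945 CPM there, against 208 and 438 CPM in the other YT-AKO libraries and 112 to 406 CPM in YT-FF. Of these 6 markers, 1 (*Acta1*) was called higher (12.6% over all tested genes). *Elovl3* kept a log2 fold change of 5.05 when that library was left out. Of the 7 sebaceous gland and skin markers, a tissue where *Elovl3* is also known, *Krt5*, *Krt15* and *Awat1* had no count in any library. The 7 markers summed to 6.78 to 12.98 CPM in YT-FF and 24.7 to 44.8 CPM in YT-AKO, and *Krt79* was called higher, at a log2 fold change of 2.62. *Mc5r* had 4.43, 6.11 and 8.19 CPM in YT-FF and 30.5, 12.1 and 7.98 CPM in YT-AKO libraries 1 to 3. It was not called (log2 fold change 1.435, edgeR adjusted p = 0.0707), and it ranked the YT-AKO libraries in the same order as *Elovl3*. *Krt79* did not, with 13.6, 26.9 and 16.2 CPM in YT-AKO libraries 1 to 3. *Elovl6* and *Scd2*, which are not skin markers, also had the order of *Elovl3*. The part of muscle and skin transcripts in the *Elovl3* result was not tested beyond these values. By RT-qPCR of scWAT, the study also reports a robust rise of *Elovl3* and *Ucp1* after loss of *Yap* and *Taz*. Of the 3 brown depot markers tested none was called, and *Zic1* had no count in any library.

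Among the 7 thermogenic genes, 5 were called higher and none lower (12.6% and 9.01% over all tested genes), with a median log2 fold change of 3.17. The count was 2 with the replicate block and 0 without YT-FF 1 or without YT-FF 2, where the medians were 3.07 and 3.31. *Ucp1*, the uncoupling protein of brown and beige fat, had 144, 395 and 243 CPM in YT-AKO libraries 1 to 3 against 3.69 to 9.84 CPM in YT-FF. *Cidea*, a lipid droplet protein, rose by 3.17 ± 0.266 (SE) on the log2 scale, and *Cox8b* and *Cox7a1*, subunits of cytochrome oxidase, rose by 4.56 and 3.94. *Ucp1* was lowest in YT-AKO 1, the library where *Elovl3* was highest, so the 2 genes did not rank the YT-AKO libraries alike. *Cox8b* and *Cox7a1* were lowest there too, and *Cidea* was lowest in YT-AKO 3. *Dio2*, named after its values were seen, was called higher, at a log2 fold change of 3.06 ± 0.516 (SE). It was highest in YT-AKO 1, with 31.5, 15.9 and 22.9 CPM in YT-AKO libraries 1 to 3.

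*Elovl6*, which lengthens palmitate, had 238, 168 and 159 CPM in YT-FF and 292, 101 and 91.9 CPM in the libraries labelled YT-AKO. The first YT-AKO library exceeded all YT-FF libraries and the other 2 lay below them all. The log2 fold change was -0.22, with an interval from -1.24 to 0.80 (edgeR adjusted p = 0.728). Without YT-AKO 1 it was -0.95 (adjusted p = 0.0371), a call that this library decides. *Elovl5*, the elongase of polyunsaturated chains, had 110.2 to 129.8 CPM in YT-FF and 160, 81.2 and 103 CPM in YT-AKO, with the same library on top. Its log2 fold change was -0.07, with an interval from -0.66 to 0.51.

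*Elovl1*, an elongase of very long saturated chains used in sphingolipids, had 44.2, 46.4 and 51.4 CPM in YT-FF and 51.6, 55.4 and 58.2 CPM in YT-AKO. The groups did not overlap, by a narrow margin. The log2 fold change was 0.22, with an interval from -0.11 to 0.55 (edgeR adjusted p = 0.280). *Elovl7* had 38 to 66 counts per library, overlapping groups and a log2 fold change of 0.17 with an interval from -0.54 to 0.89. Non-overlap in CPM was common: it held for 25.7% of tested genes toward higher and 25.8% toward lower levels, and for 2 of the 10 genes in each direction (*Elovl1* and *Elovl3*, *Fads2* and *Fads3*). *Elovl2* and *Elovl4*, the elongases of very long polyunsaturated chains, were too low to be tested, at no more than 0.703 CPM in any library.

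**Figure D2:**
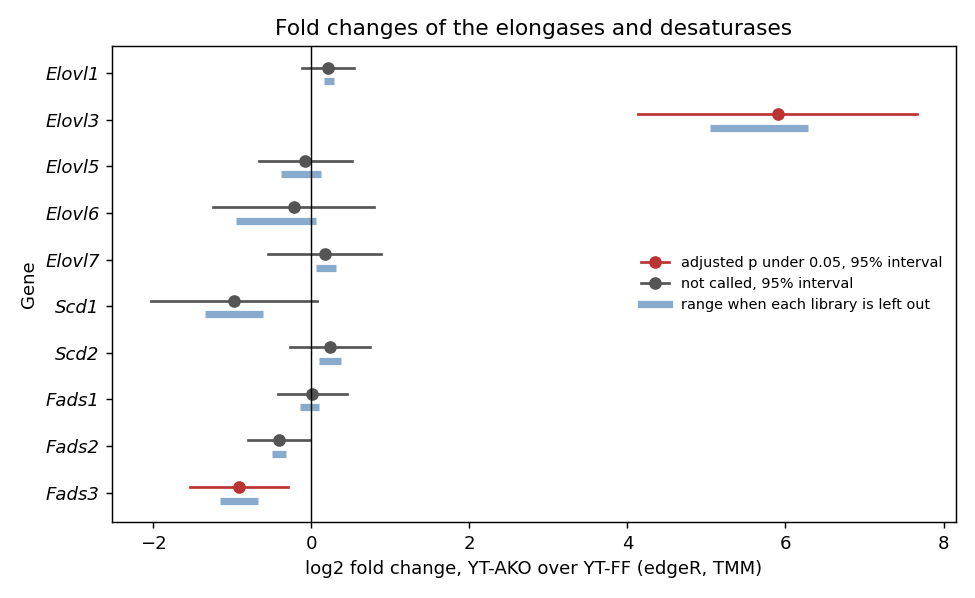
log2 fold change of each gene, YT-AKO over YT-FF, with its 95% interval (edgeR) and, below it, the range when each library is left out in turn. *Elovl3* (5.90) and *Fads3* (-0.91) are the genes called. The ranges of *Elovl3* (5.05 to 6.28), *Elovl6* (-0.95 to 0.064) and *Scd1* (-1.35 to -0.61) show the weight of single libraries.

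*Scd1*, the main Δ9 desaturase of adipocytes, took from 0.623% to 4.81% of all counts in a library. It had 26041, 22587 and 45194 CPM in YT-FF and 23108, 8021 and 16457 CPM in the libraries labelled YT-AKO. The first YT-AKO library overlapped the YT-FF range and the other 2 lay below it. The log2 fold change was -0.98 ± 0.453 (SE), with an interval from -2.03 to 0.07 (edgeR adjusted p = 0.143). DESeq2 called it (-0.99, adjusted p = 0.0404). YT-FF 3 had the highest level, and without it the log2 fold change was -0.61.

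*Scd2*, the desaturase isoform with a broader tissue range, had 410, 328 and 476 CPM in YT-FF and 574, 453 and 408 CPM in YT-AKO. The groups overlapped, and the log2 fold change was 0.24 with an interval from -0.26 to 0.74. Within a library, *Scd2* made up 1.39%, 1.28% and 0.935% of the summed TPM of *Scd1* to *Scd4* in YT-FF and 2.18%, 4.81% and 2.17% in YT-AKO. The share was higher in all 3 YT-AKO libraries, by 1.85 percentage points on average (two-sided exact permutation p = 0.1, adjusted over 4 such comparisons 0.1). With 3 against 3 libraries, 0.1 is the smallest p this test can give. Without YT-AKO 2 the difference was 0.972 points. Mean *Scd2* TPM itself was lower in YT-AKO, at 214 against 280, and mean *Scd1* TPM was 8396 against 24002. Over all tested genes the median log2 ratio of mean TPM was -0.66, against -0.39 for *Scd2* and -1.515 for *Scd1*. The lower *Scd2* TPM was thus no fall beyond the shift of the scale. *Scd3* and *Scd4* stayed at no more than 1.36 CPM, with log2 fold changes of 0.65 and -0.11 that were not called.

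*Fads3*, which desaturates sphingoid bases, was the most abundant of the FADS genes. It had 354, 304 and 502 CPM in YT-FF and 175, 171 and 272 CPM in the libraries labelled YT-AKO, and the groups did not overlap. The mean was 387 ± 103 CPM (SD, n = 3) against 206 ± 57.2 CPM (SD, n = 3). The log2 fold change of -0.91 had an interval from -1.53 to -0.29 (edgeR adjusted p = 0.0478), close to the threshold. The call was lost in 4 of the 6 fits that leave out a library, those without YT-FF 1, 2 or 3 and that without YT-AKO 1 (-0.80, edgeR adjusted p = 0.103), and with a correction for gene length (-0.89, adjusted p = 0.0526), while leaving out libraries moved the value between -1.15 and -0.67. B cell markers moved in the same direction: their sum was 1016 to 1200 CPM in YT-FF and 618 to 859 CPM in YT-AKO. Of these 6 markers, 4 were called lower (9.01% over all tested genes). None of the 6 had a zero count, and their part in the *Fads3* result was not tested.

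*Fads2*, the first desaturase of polyunsaturated synthesis, had 18.7, 21.3 and 23.5 CPM in YT-FF and 16.6, 15.5 and 15.8 CPM in YT-AKO. The groups did not overlap, and the YT-AKO libraries lay close together. The log2 fold change was -0.41 with an interval from -0.80 to -0.02, and it did not pass after adjustment (edgeR adjusted p = 0.111). *Fads1*, the desaturase that acts after *Fads2* and an elongation step, had 103, 83.7 and 106 CPM in YT-FF and 88.1, 87.0 and 121 CPM in YT-AKO. The groups overlapped and the log2 fold change was 0.02, with an interval from -0.42 to 0.46.

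**Figure D3:**
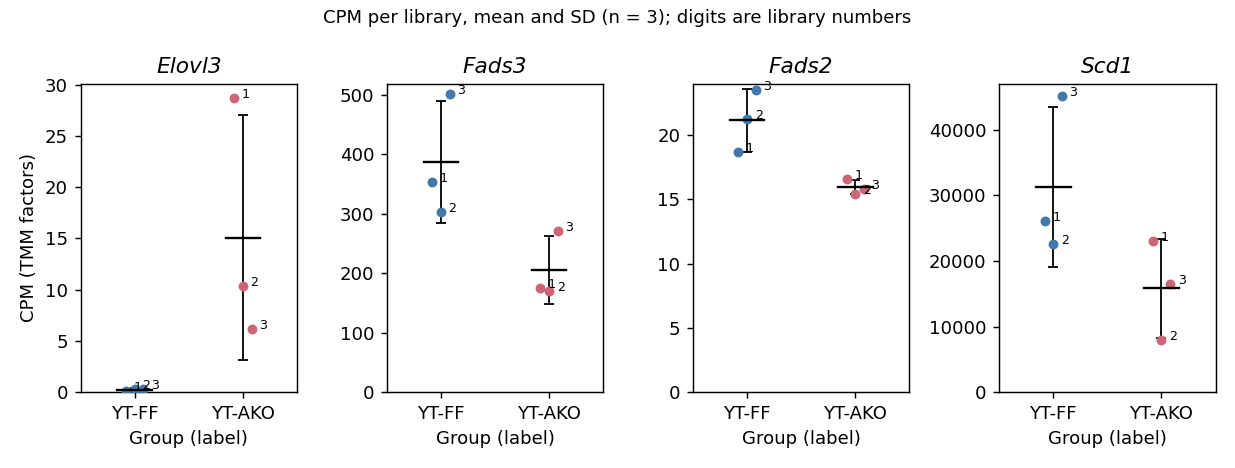
CPM of *Elovl3*, *Fads3*, *Fads2* and *Scd1* per library, with the group mean and SD (n = 3) and digits for the library numbers; each axis starts at 0. The groups are apart for *Elovl3*, *Fads3* and *Fads2*, and overlap for *Scd1*.

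Shares inside a family do not depend on the scaling of libraries. *Fads1* made up 17.8%, 16.7% and 13.6% of FADS TPM in YT-FF and 26.3%, 26.7% and 24.7% in YT-AKO, and was higher in all 3 YT-AKO libraries by 9.87 percentage points on average. *Fads3* made up 77.1% to 82.0% in YT-FF and 66.4% to 70.6% in YT-AKO. *Elovl3* made up 0.0475% to 0.226% of elongase TPM in YT-FF and 11.6%, 8.05% and 4.54% in YT-AKO, while *Elovl5* made up 35.3% to 43.8% over the 6 libraries. The log2 ratio of summed elongase to summed SCD TPM was -6.24 ± 0.609 (SD, n = 3) in YT-FF and -5.21 ± 0.466 (SD, n = 3) in YT-AKO. The *Fads1* share, the *Elovl3* share and this ratio were each apart between the groups. Each had a two-sided exact permutation p = 0.1, the smallest possible (adjusted over the 4 comparisons 0.1). With 3 against 3 libraries, groups that do not overlap always give this p. The *Elovl3* share uses the same counts as the *Elovl3* call, so it is not separate support for that call. A share or ratio also moves with its other genes. From YT-FF to YT-AKO, mean summed TPM went from 311 to 217 for elongases and from 24283 to 8611 for SCD genes. Mean *Fads1* TPM went from 76.7 to 50.4, and that of *Fads3* from 384 to 134. These means carry the shift of the TPM scale, a median log2 ratio of -0.66 over all tested genes. The log2 ratio was -0.61 for *Fads1* and -1.52 for *Fads3*.

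**Figure D4:**
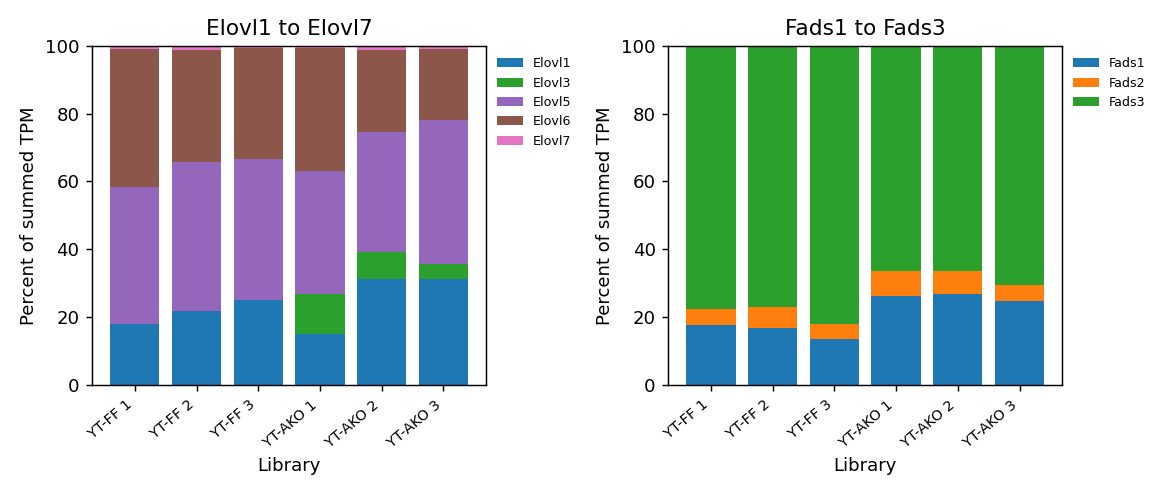
Percent of the summed TPM of *Elovl1* to *Elovl7* (left) and of *Fads1* to *Fads3* (right) per library; genes under 0.5% in every library are not drawn. *Elovl3* takes 4.54% to 11.6% of the YT-AKO bars and at most 0.226% of the YT-FF bars, and the *Fads1* part is larger in each YT-AKO bar.

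The remaining steps of the elongation cycle are carried out by a reductase, dehydratases and a second reductase. Of the 6 such genes tested, 4 were called higher in the libraries labelled YT-AKO and none lower, and the median log2 fold change was 0.74. Over all tested genes, 12.6% were called higher and 9.01% lower. *Hsd17b12*, the ketoacyl-CoA reductase of the cycle, rose from 157, 173 and 190 CPM to 341, 241 and 311 CPM, a log2 fold change of 0.78 ± 0.188 (SE). *Tecr*, the reductase of the last step, rose by 0.69 ± 0.175 (SE), and *Hacd2*, a dehydratase, by 0.80 ± 0.237 (SE). *Hacd1*, a dehydratase also known from muscle, rose by 1.60 ± 0.266 (SE), with 36.6, 54.6 and 34.1 CPM in YT-AKO libraries 1 to 3. The summed muscle markers were highest in YT-AKO 1, and leaving that library out gave *Hacd1* a log2 fold change of 1.70 (edgeR adjusted p = 0.0254). In TPM the folds of *Hsd17b12*, *Tecr* and *Hacd2* were 1.13, 1.01 and 1.14. The count of 4 became 2 with the gene length correction, 1 with library totals alone and 0 without YT-FF 1 or 2.

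Desaturases draw electrons through cytochrome b5 and its reductase. Of 7 tested electron donors, 3 were called higher and none lower (12.6% and 9.01% over all tested genes), with a median log2 fold change of 0.46. *Cyb5a* and *Cyb5b*, the microsomal and mitochondrial cytochromes b5, rose by 0.83 ± 0.190 (SE) and 0.63 ± 0.175 (SE). *Cyb5r3*, the reductase, rose by 0.76 ± 0.203 (SE). The count was 0 with library totals alone, without YT-FF 1, without YT-FF 2 or without YT-AKO 3.

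Of 9 genes of the supply of citrate, acetyl-CoA, malonyl-CoA and palmitate or of malonyl-CoA breakdown, 2 were called higher (12.6% over all tested genes). *Slc25a1*, the mitochondrial citrate carrier, rose by 1.11 ± 0.268 (SE), with YT-AKO 1 the highest at 1721 CPM against 993 and 997 CPM in the others. *Mlycd*, which breaks malonyl-CoA down, rose by 1.20 ± 0.194 (SE). *Fasn*, fatty acid synthase, named after its values were seen, had a log2 fold change of -0.35 with an interval from -1.09 to 0.40. The count was 1 with library totals alone and 0 without YT-FF 1 or 2.

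Of 15 lipogenic regulators, 3 were called higher and 1 lower (12.6% and 9.01% over all tested genes). *Thrsp* and *Mid1ip1*, whose proteins are partners in the control of acetyl-CoA carboxylase, rose by 1.59 ± 0.390 (SE) and 0.77 ± 0.211 (SE). *Nr1h3*, which encodes LXRα, rose by 1.06 ± 0.220 (SE). *Mbtps2*, a protease that releases SREBPs, fell by 0.79 ± 0.172 (SE). *Srebf1*, which encodes SREBP-1 and was named after its values were seen, had 740, 631 and 511 CPM in YT-FF and 602, 593 and 701 CPM in YT-AKO. The log2 fold change was 0.01 with an interval from -0.46 to 0.48.

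Of 15 tested genes that use elongated or unsaturated chains, 4 were called higher and 1 lower (12.6% and 9.01% over all tested genes). Their median log2 fold change was 0.17. With library totals alone the counts became 1 higher and 2 lower, with a median of -0.13, and without YT-FF 1 or 2 none was called. *Scp2* and *Hsd17b4*, of peroxisomal oxidation, rose by 0.87 ± 0.184 (SE) and 0.72 ± 0.191 (SE). *Dgat1*, which makes triglycerides, rose by 0.68 ± 0.194 (SE), and *Cers6*, a ceramide synthase that prefers palmitoyl-CoA, fell by 1.27 ± 0.243 (SE). *Degs2*, a sphingolipid desaturase and the gene called among 6 other elongases and desaturases tested, fell by 2.31 ± 0.513 (SE) from a level of 1.96 to 5.05 CPM, and 10.8% of its exon bases overlap *Evl*.

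**Figure D5:**
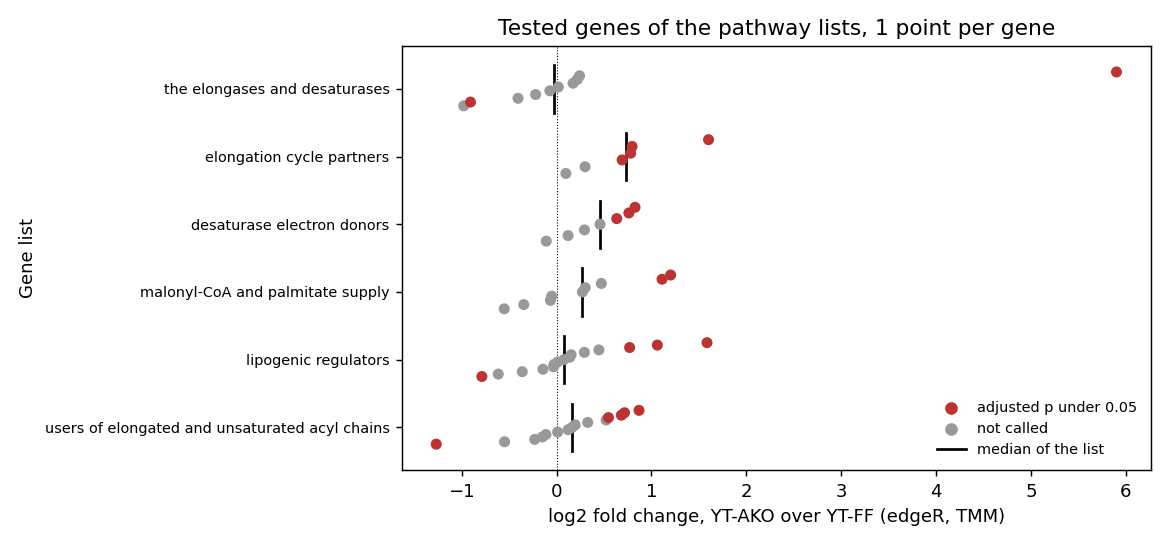
log2 fold change, YT-AKO over YT-FF, of each tested gene in 6 lists, with called genes in red and a bar at the median of each list. Medians were -0.03 for the elongases and desaturases, 0.74 for the elongation cycle partners and 0.46 for the electron donors.

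Of 12 tested genes next to the FADS and SCD clusters, 3 were called higher and none lower (12.6% and 9.01% over all tested genes). The count was 1 without YT-FF 3 and 0 with the replicate block, without YT-FF 1 or without YT-FF 2. *Fth1*, the ferritin heavy chain near *Fads3*, rose by 1.53 ± 0.330 (SE), *Tmem258*, beside *Fads1*, by 0.99 ± 0.196 (SE), and *Ndufb8*, a complex I subunit near the SCD cluster, by 1.70 ± 0.236 (SE).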

How the data were processed

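Bulk RNA-seq libraries of scWAT, 3 per genotype, were grouped by the genotype in the labels. The authors aligned paired-end reads to mm10 (HISAT2) and tallied read pairs over GENCODE vM25 exons with featureCounts v2.0.1, without strand. The deposited values are raw counts with no normalization, and the deposited exon length of each gene gave TPM. Symbols and coordinates came from a GRCm38 annotation that matched 55141 of 55401 genes. Total counts of 17740987 to 21838493 limit the precision for low genes.

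In R 4.3.3, edgeR 4.0.16 (TMM, filterByExpr with minimum count 10 and total 15, quasi-likelihood test) was fitted to all 6 libraries, with Benjamini-Hochberg adjustment over 16807 genes. Calls are at an adjusted p under 0.05. The biological coefficient of variation was 0.288. DESeq2 1.42.0 and limma 3.58.1 (voom) were alternatives. Family shares used two-sided exact permutation tests (scipy). The tests were checked on simulated counts. The 10 genes and the lists were chosen with earlier results of these data known. From each list the text names the called genes, at most the 4 with the smallest p, and *Fasn*, *Srebf1* and *Dio2* were added with their values known. Promoters are RefSeq's (GRCm38.p6). The labels do not say whether libraries were prepared separately, so p-values measure the spread between these 6 samples.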

Additional observations from a re-analysis of the deposited data

How the results depend on the processing

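Calls changed with the libraries used, the replicate block and the threshold. Leaving out each library in turn, the elongases and desaturases called ranged from 0 to 1 in each direction, with *Elovl3* lost without YT-FF 1 or 2 and *Fads3* lost without any of the YT-FF libraries or without YT-AKO 1. In that last fit the gene called lower was *Elovl6* (adjusted p = 0.0371). Over all genes, 0 to 2925 were then called higher and 0 to 2424 lower. edgeR called 0 genes without YT-FF 1. Without YT-FF 2 its calls were 0 higher and 2 lower. In these fits 4665 and 4507 genes had an unadjusted p under 0.05. Other tools were not run on these subsets.

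With the replicate block 0 of the 10 genes were called in either direction, and 24 genes were called higher and 9 lower over all. With the block and the gene length correction together, 0 of the 10 were called, and 59 genes higher and 22 lower. The labels give both groups the numbers 1 to 3. Deviations of same-numbered libraries correlated at 0.126, -0.118 and -0.089, and those of differently numbered libraries at -0.14 to 0.16. With 3 libraries per group, these values cannot tell whether the numbers pair the samples. As differences between same-numbered libraries, the 4 share results kept their values and had an exact sign-flip p of 0.25, the smallest it can give.

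Among the 10 genes, none was called higher with at least 10 counts in every library, where *Elovl3* was not tested. None was called in either direction when the study's thresholds (adjusted p 0.01, log2 fold change 1) were put on the edgeR fit. By these thresholds edgeR called 15 genes higher and 6 lower over all, and its smallest adjusted p was 0.00729. The study put them on DESeq2 results, and DESeq2 here gave *Elovl3* a log2 fold change of 5.92 (adjusted p = 7.08e-17). The gene length correction called 0 of the 10 lower and 763 genes lower over all. With it and without YT-AKO 2, a setting chosen after seeing the data, 0 of the 10 were called lower. DESeq2 called 2 lower (*Fads3* and *Scd1*). Over all genes it also called 3619 of those edgeR called, and 7355 genes in either direction had an unadjusted DESeq2 p under 0.05. Library totals alone called 2 lower (*Fads3* and *Fads2*), with 1137 genes higher and 2828 lower over all and a median log2 fold change of -0.34.

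Directions near 0 turned. With library totals alone the log2 fold changes were -0.11 for *Elovl1*, -0.17 for *Elovl7*, -0.073 for *Scd2*, -0.29 for *Fads1* and -0.32 for *Srebf1*. Upper-quartile factors gave -0.024 for *Fads1* and -0.034 for *Srebf1*, and at least 10 counts in every library -0.012 and -0.021. Without YT-AKO 2 and with the length correction, *Elovl5* was 0.10, *Elovl6* 0.18 and *Fasn* 0.16. The length correction gave 0.10 for *Fasn*, and 0.071 with the block. Leaving out libraries moved *Elovl5* from -0.38 to 0.12, *Elovl6* from -0.95 to 0.064, *Fads1* from -0.15 to 0.10, *Scd4* from -0.87 to 0.33 and *Srebf1* from -0.11 to 0.14. The cause of these changes was not tested.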
